A study of Homo sapiens with 10 samples.

Results

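The interleukin-1 (IL-1) family was examined in human renal proximal tubular epithelial cells (RPTECs) 7 days after irradiation. The family was followed as 10 genes chosen by symbol: the ligands IL1A, IL1B, IL18 and IL33, the receptor antagonist IL1RN, the receptors IL1R1, IL1R2, IL1RL1 and IL1RAP, and the protease CASP1. Each symbol matched 1 row among the 61587 genes of the count table. Poly-A RNA was sequenced in bulk from 5 control and 5 irradiated samples of RPTEC/TERT1, a line of kidney tubule cells immortalised with telomerase. Irradiated cells received 10 Gy of gamma rays from a caesium source, and controls were mock-irradiated (0 Gy). RNA was collected on day 7 in both groups, and no other treatment is named for either. The study's culture medium for these cells held hydrocortisone, prostaglandin E1, epidermal growth factor and geneticin, among other supplements. Their part in the levels of these genes was not tested. The model is a single immortalised line grown without leukocytes or stroma. Samples of both groups are numbered 1 to 5, and the labels do not say whether these were separate cultures, so p-values measure the spread between these samples, which may be technical.

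IL-1α and IL-1β bind the receptor IL1R1, which recruits the co-receptor IL1RAP and signals through the adaptor MYD88 and the IRAK kinases to NF-κB and MAP kinases. IL1RN competes for the same receptor without triggering it, and IL1R2 is a decoy that binds IL-1 but lacks the signalling domain. IL-33 uses IL1RL1 (ST2) together with IL1RAP, whereas IL-18 has its own receptor pair. The precursors of IL-1β and IL-18 are cleaved by caspase-1 within inflammasomes, whereas the IL-1α precursor is already active when dying or stressed cells release it. Transcript levels do not measure that cleavage or release.

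Depth on genes was 78081911 to 131555873 counts in controls and 66269311 to 101594948 in irradiated samples. Levels are given as CPM (library-scaled counts, by TMM normalisation), where a total of 3 counts over the 10 samples equals 0.00304 CPM. Control replicate 3 stood apart: CDKN1A, which encodes the cell cycle inhibitor p21, was at 208 CPM there, against 66.7 to 80.9 CPM in the other controls and 584 to 768 CPM after irradiation. The tubule labels were met in part. Of 15 tubule epithelium markers, 12 had at least 200 counts, and 2 were higher and 3 lower by the test described below. Over all genes tested, 23.9% were higher and 22.7% lower. The summed level of the tubule markers was 3169 to 3790 CPM in controls and 3416 to 5023 CPM after irradiation. PAX8 was at 468 to 627 CPM over all samples, whereas HNF4A did not exceed 0.0436 CPM and LRP2 did not exceed 0.0540 CPM. Some markers of other cells, at low levels, also moved with irradiation, against the same 23.9% higher and 22.7% lower over all genes tested. The 8 leukocyte markers summed to 0.832 to 1.14 CPM in controls and 2.06 to 2.78 CPM after irradiation (2 higher, 3 at 200 counts or more), and the myeloid ITGAM and CD14 were the 2 that were higher. ITGAM was at 0.0168 to 0.0787 CPM in controls and 0.853 to 1.71 CPM after irradiation, and CD14 at 0.196 to 0.336 and 0.414 to 0.659 CPM. ITGAM reached 200 counts through the irradiated samples, since its control counts summed to 25. The general leukocyte marker PTPRC did not pass, at 0.185 to 0.453 and 0.269 to 0.540 CPM (edgeR adjusted p = 0.283), and the myeloid CD68 had at most 7 counts in any sample. The 5 endothelial markers summed to 1.32 to 2.45 CPM in controls against 4.18 to 6.09 CPM after irradiation (2 higher, 3 at 200 counts or more). The 6 fibroblast markers summed to 19.8 to 27.1 CPM against 33.7 to 45.6 CPM (3 higher, 3 at 200 counts or more). The 4 lymphocyte markers summed to at most 0.0420 CPM in controls and 0.0544 CPM after irradiation, with CD2 at 0. The 6 keratinocyte markers, carried by KRT10, were lower after irradiation (39.6 to 42.7 CPM against 46.2 to 51.3 CPM), with KRT1 and LORICRIN at 0. The part of these markers in the results on the family was not tested, and in bulk RNA fewer cells of a type cannot be told apart from less RNA per cell.

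Of the 10 members, 7 had the 200 counts over all samples needed for the test, edgeR's quasi-likelihood test with replicate number as a block and Benjamini-Hochberg adjustment over 19006 genes at a threshold of 0.05. IL1A, IL18, IL1R2 and IL1RL1 were higher after irradiation, IL1RAP and CASP1 were lower, and IL1R1 did not pass. Over all genes tested, 23.9% were higher and 22.7% were lower, so that 51.4% of calls were higher (38.0% when only library size was used for scaling). IL1A, IL18 and IL1RL1 were higher by more than 2-fold, as were 5.26% of all genes tested. In these 3 genes no irradiated sample overlapped the controls, a separation seen in 26.7% of all genes tested. IL1A and IL1RL1 passed the minimum largely through the irradiated samples, since their control counts summed to 51 and 142. The median log2 fold change of the 7 members was 0.48, against -0.01 over all genes tested. IL1B, IL1RN and IL33 held 77, 50 and 25 counts in all and were outside this test.

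**Figure D1:**
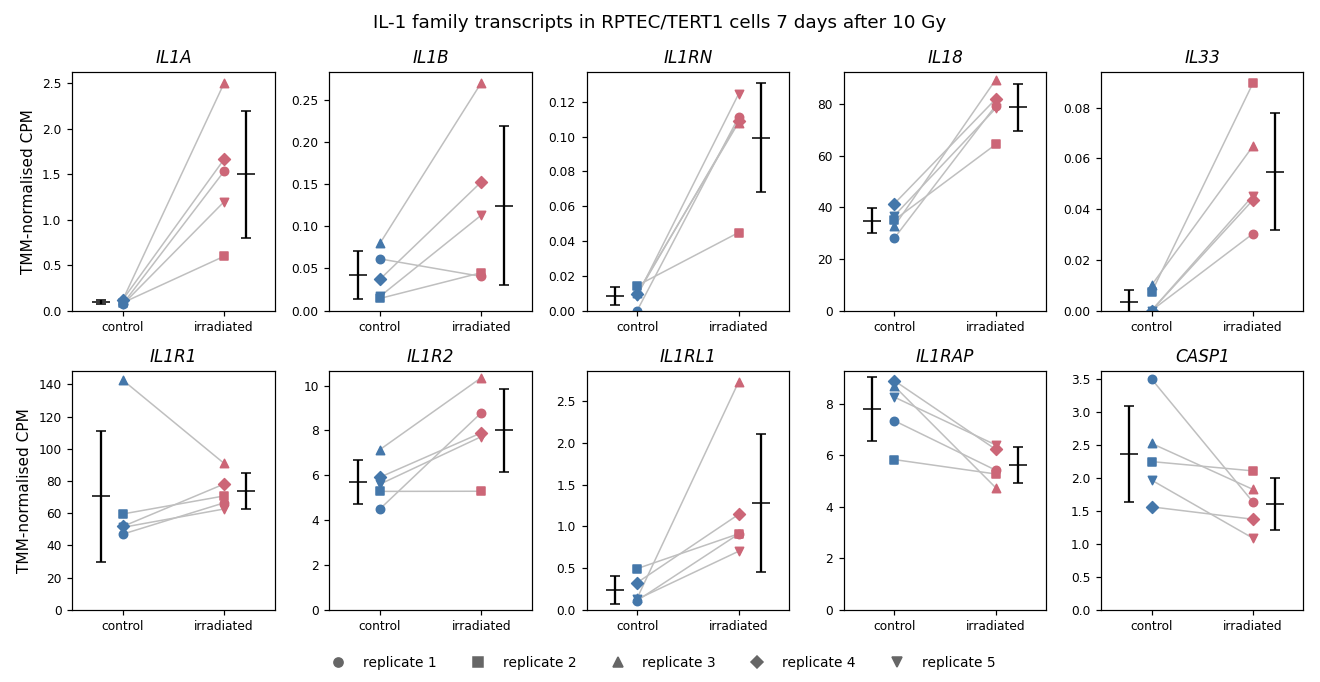
TMM-normalised CPM of each of the 10 members (vertical axes, each from 0 with its own scale) in control (blue) and irradiated (red) samples. Symbols mark replicate numbers, grey lines join samples of the same number, and black bars beside the points are the mean and SD of 5 samples, drawn down to 0 at most. IL1A, IL1RN, IL18, IL33 and IL1RL1 were higher in every irradiated sample than in every control. The groups were separate in 26.7% of all genes tested, a share that does not cover IL1RN and IL33, which were under the count minimum. IL1R1 in control replicate 3 lay far above the other controls.

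The genes of IL-1α, IL-1β and the antagonist lie in 1 cluster on chromosome 2 of GRCh38: IL1A at chr2:112773925-112784493 and IL1B at chr2:112829751-112836816, both on the minus strand, and IL1RN at chr2:113099315-113134016 on the plus strand. IL18 lies at chr11:112143253-112164096 (minus strand) and IL33 at chr9:6215786-6257983 (plus strand). No exon of these 5 genes overlaps another annotated gene, so their counts were free of reads shared by position.

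IL1A encodes IL-1α, a cytokine that epithelial cells hold as an active precursor. Control replicates 1 to 5 had 0.0734, 0.0859, 0.120, 0.121 and 0.0672 CPM of IL1A, from 6, 12, 12, 13 and 8 counts. Irradiated replicates 1 to 5 had 1.53, 0.597, 2.51, 1.67 and 1.20 CPM, from 152, 40, 232, 153 and 106 counts. The lowest irradiated sample, replicate 2, thus exceeded the highest control several times over. The means were 0.0934 ± 0.0254 CPM in controls and 1.5 ± 0.697 CPM after irradiation (SD, n = 5). By edgeR's quasi-likelihood test IL1A was 14.9-fold higher (log2 fold change 3.90, SE 0.23, adjusted p = 2.84e-05) and higher in 5 of 5 pairs.

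IL1B, the inducible IL-1 gene whose product needs cleavage, was close to the limit of detection throughout. Controls 1 to 5 held 5, 2, 8, 4 and 2 counts (0.0612, 0.0143, 0.0797, 0.0371 and 0.0168 CPM). Irradiated samples held 4, 3, 25, 14 and 10 counts (0.0404, 0.0448, 0.270, 0.152 and 0.113 CPM). Irradiated replicates 1 and 2 lay within the control range and the others above it, so the groups overlapped. Pooled over samples, 56 counts after irradiation against 21 in controls gave a ratio of 3.33 in CPM (95% exact interval 1.99 to 5.80, covering counting error only). In a fit of every gene with at least 1 count, in which 10.2% of genes were higher, the edgeR quasi-likelihood test gave IL1B a log2 fold change of 1.52 (SE 0.45, adjusted p = 0.0170), with irradiated higher in 4 of 5 pairs.

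IL1RN, the gene of the receptor antagonist, had 0, 2, 1, 1 and 1 counts in controls 1 to 5. After irradiation it had 11, 3, 10, 10 and 11 counts. All irradiated samples were above the controls, although replicate 2 was only 1 count above the highest control count. The pooled ratio was 11.2 in CPM (95% exact interval 4.48 to 36.3, counting error only), and the fit of every gene with at least 1 count gave a log2 fold change of 3.22 (SE 0.62, edgeR adjusted p = 0.000346). The counts are per gene and cannot tell the secreted from the intracellular form of the antagonist, which start at different promoters.

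The sequences before 3 annotated starts of these genes (RefSeq, GRCh38.p14) are shown because they hold a match to the AP-1 motif TGANTCA or the CEBP motif TTGCNNAA on either strand. Each is the run of 250 bases before the start, 5′ to 3′ on the gene's strand, with the match in capitals:
IL1A: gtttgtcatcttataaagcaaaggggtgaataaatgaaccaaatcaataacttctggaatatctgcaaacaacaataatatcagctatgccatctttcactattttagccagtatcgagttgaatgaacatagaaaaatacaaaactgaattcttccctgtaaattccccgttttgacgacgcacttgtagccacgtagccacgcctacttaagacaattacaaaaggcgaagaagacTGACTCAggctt
IL1B: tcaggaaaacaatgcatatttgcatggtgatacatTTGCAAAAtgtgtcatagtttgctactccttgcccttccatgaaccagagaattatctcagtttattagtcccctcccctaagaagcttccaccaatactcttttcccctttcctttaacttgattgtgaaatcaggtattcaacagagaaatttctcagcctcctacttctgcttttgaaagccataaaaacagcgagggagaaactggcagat
IL1RN: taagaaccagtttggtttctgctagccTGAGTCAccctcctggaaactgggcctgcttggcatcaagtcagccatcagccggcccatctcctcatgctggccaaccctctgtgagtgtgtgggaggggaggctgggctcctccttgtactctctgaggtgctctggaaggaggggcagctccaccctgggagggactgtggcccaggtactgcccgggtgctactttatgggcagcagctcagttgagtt
The IL1A run is chr2:112784494-112784743 on the minus strand, where the AP-1 match lies 12 to 6 bases before the start. A neighbouring IL1A start at position 112784400 has the same match and a further AP-1 match at chr2:112784449-112784455. The IL1B run is chr2:112836780-112837029 on the minus strand, with the CEBP match 215 to 208 bases before the start. The IL1RN run is chr2:113117721-113117970 on the plus strand, with the AP-1 match 223 to 217 bases before the start. The windows before the IL1RN starts at positions 113127489 and 113127598 held no match to either motif. Of 35116 windows of this length before annotated starts, 6.57% held the AP-1 motif and 9.05% the CEBP motif, and a match is a run of letters, not a measured binding site.

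IL18, whose product caspase-1 matures, had the highest level of the 5 ligand genes, also per kb of exon. Controls 1 to 5 had 28.1, 35.1, 32.7, 41.4 and 36.8 CPM of IL18. Irradiated samples had 79.4, 64.4, 89.4, 81.9 and 78.3 CPM. The lowest irradiated value lay well above the highest control value, and the spread within each group was small (34.8 ± 4.93 and 78.7 ± 9.10 CPM, SD, n = 5). IL18 was 2.26-fold higher (log2 fold change 1.18, SE 0.10, edgeR adjusted p = 9.39e-05) and higher in 5 of 5 pairs.

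IL33, which encodes a nuclear alarmin, was barely detected. Controls held 0, 1, 1, 0 and 0 counts and irradiated samples 3, 6, 6, 4 and 4 counts. The groups did not overlap, but no sample had more than 6 counts. The pooled ratio was 14.4 in CPM with a wide counting interval of 3.55 to 126 (95%, exact), because it rests on 2 control counts. The fit of every gene with at least 1 count gave a log2 fold change of 3.58 (SE 0.92, edgeR adjusted p = 0.00566). In that fit 7 of the 10 members were higher, against 10.2% of the 44263 genes in it. These were the 4 above and IL1B, IL1RN and IL33, whose control counts summed to only 21, 5 and 2.

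IL1R1, IL1R2 and IL1RL1 form a receptor cluster on the plus strand of chromosome 2: IL1R2 at chr2:101991960-102028544, IL1R1 at chr2:102064544-102179874 and IL1RL1 at chr2:102311502-102352037. IL1RAP lies at chr3:190514051-190659750 on the plus strand. The exons of IL1RL1 overlap those of IL18R1 over 1.65% of their length and those of IL1R1 overlap an antisense gene over 0.154%.

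IL1R1, the signalling receptor for IL-1α and IL-1β, was at 47.0, 59.5, 143, 51.7 and 51.2 CPM in controls 1 to 5. In irradiated samples it was at 66.4, 70.7, 90.9, 78.1 and 62.6 CPM. Controls 1, 2, 4 and 5 were below all irradiated samples, whereas control replicate 3 was above all of them. With all samples the means were 70.4 ± 40.6 and 73.7 ± 11.2 CPM (SD, n = 5), and IL1R1 did not pass the edgeR test (log2 fold change 0.20, SE 0.16, adjusted p = 0.355). Without replicate 3 the means were 52.3 ± 5.22 and 69.5 ± 6.65 CPM (SD, n = 4), and the same test gave a log2 fold change of 0.41 (edgeR adjusted p = 0.00249). The result on IL1R1 therefore rested on 1 pair, the only one of the 5 in which the irradiated sample was lower.

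IL1R2, the decoy receptor, was at 4.50, 5.28, 7.15, 5.91 and 5.60 CPM in controls. It was at 8.79, 5.29, 10.4, 7.89 and 7.72 CPM in irradiated samples. Irradiated replicate 2 was level with its control and the groups overlapped there, while the rest of the irradiated samples were above every control. The means were 5.69 ± 0.970 and 8.01 ± 1.85 CPM (SD, n = 5), a 1.39-fold rise (log2 fold change 0.48, SE 0.13, edgeR adjusted p = 0.0176). Without replicate 5 the log2 fold change was 0.49 and the call was lost (edgeR adjusted p = 0.0541).

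IL1RL1 encodes ST2, the IL-33 receptor, whose shorter transcript gives a soluble decoy. Controls had 0.110, 0.494, 0.140, 0.325 and 0.126 CPM of IL1RL1. Irradiated samples had 0.908, 0.911, 2.73, 1.14 and 0.701 CPM. All irradiated samples were above all controls, although both groups were uneven and irradiated replicate 3 was far above the rest. IL1RL1 was 5.08-fold higher (log2 fold change 2.34, SE 0.43, edgeR adjusted p = 0.00349) and higher in 5 of 5 pairs. Without replicate 3 the means were 0.264 ± 0.182 and 0.916 ± 0.181 CPM (SD, n = 4) and the log2 fold change was 1.85 (edgeR adjusted p = 0.00323). Counts per gene do not tell the membrane form from the soluble form.

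IL1RAP, the co-receptor that IL1R1 and ST2 share, moved in the opposite direction. It was at 7.34, 5.83, 8.68, 8.89 and 8.26 CPM in controls and at 5.42, 5.27, 4.74, 6.23 and 6.40 CPM in irradiated samples. Control replicate 2 lay within the irradiated range and the other controls lay above it. IL1RAP was lower in 5 of 5 pairs, with means of 7.80 ± 1.25 and 5.61 ± 0.692 CPM (SD, n = 5) and a 1.38-fold fall (log2 fold change -0.47, SE 0.11, edgeR adjusted p = 0.00895). Membrane and soluble IL1RAP transcripts were counted together.

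Among receptor starts, 1 window of IL1RL1 held an AP-1 match and 1 window of IL1R2 held a match to the NF-κB motif, and both runs of 250 bases before the start (RefSeq, GRCh38.p14, plus strand, 5′ to 3′, match in capitals) are shown for comparison with the ligand genes:
IL1RL1: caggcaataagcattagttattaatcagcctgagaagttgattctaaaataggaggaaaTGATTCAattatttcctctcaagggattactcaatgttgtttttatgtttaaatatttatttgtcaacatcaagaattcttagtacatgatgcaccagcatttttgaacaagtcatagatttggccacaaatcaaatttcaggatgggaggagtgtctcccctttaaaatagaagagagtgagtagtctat
IL1R2: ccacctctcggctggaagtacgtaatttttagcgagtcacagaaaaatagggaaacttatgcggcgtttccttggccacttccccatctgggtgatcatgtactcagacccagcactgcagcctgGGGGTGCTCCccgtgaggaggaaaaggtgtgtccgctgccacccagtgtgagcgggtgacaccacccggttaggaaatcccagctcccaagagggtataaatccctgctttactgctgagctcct
The IL1RL1 run is chr2:102337007-102337256, with the match 191 to 185 bases before the start. The IL1R2 run is chr2:101991710-101991959, with the match 125 to 116 bases before the start, and 9.96% of all windows of this length held the NF-κB motif. In all, 17 windows matched 8 members by symbol. AP-1 was found in 4 of these windows, 2 of them the overlapping IL1A windows that share a match, and NF-κB and CEBP in 1 each.

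CASP1 encodes caspase-1, which matures IL-1β and IL-18, and lies at chr11:105025397-105035250 on the minus strand. Controls 1 to 5 had 3.50, 2.25, 2.52, 1.56 and 1.97 CPM of CASP1. Irradiated samples had 1.63, 2.11, 1.82, 1.37 and 1.09 CPM. The groups overlapped, since the lowest control was below 3 irradiated samples, but each irradiated sample was below its own control. CARD16, a neighbour that shares part of its sequence with CASP1, had 165 counts in all, and how reads were split between them is not known. CARD16 was also lower in 5 of 5 pairs. Its log2 fold change was -0.96 in the fit of every gene with at least 1 count (edgeR adjusted p = 0.00964). The means were 2.36 ± 0.730 and 1.60 ± 0.395 CPM (SD, n = 5), a 1.45-fold fall (log2 fold change -0.54, SE 0.16, edgeR adjusted p = 0.0280). The call was lost without replicate 1 (log2 fold change -0.40, edgeR adjusted p = 0.0890), without replicate 5 (-0.45, adjusted p = 0.104) and without the block (-0.55, adjusted p = 0.0775).

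**Figure D2:**
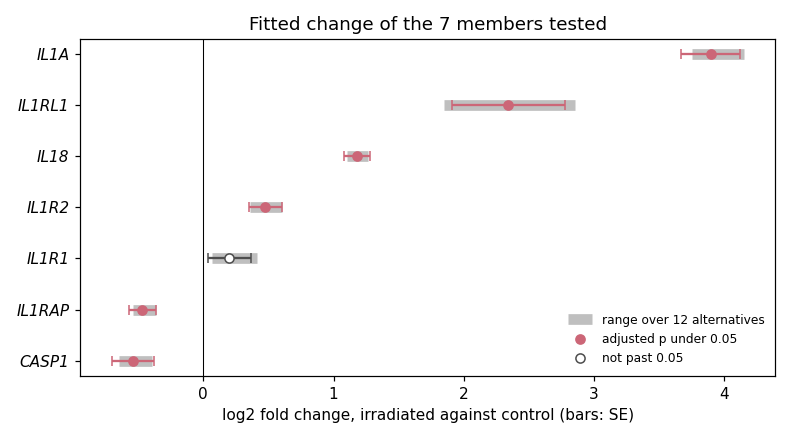
Fitted log2 fold change, irradiated against control, of the 7 members tested, with bars for the SE and grey bands for the range over 12 alternative analyses. Filled points had an adjusted p under 0.05. IL1A lay highest at 3.90, IL1RL1 and IL18 followed at 2.34 and 1.18, and IL1RAP and CASP1 lay below 0.

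Levels of different genes can be compared only per length, and were divided by the length of each gene's annotated exons in kb. All annotated exons of a gene were merged, from 2017 bases for IL1A to 11210 for IL1RAP. Where the transcript in use is shorter than that, the level per kb is understated, so the order depends in part on the annotation. In controls the order of mean CPM per kb was IL18 (13.4), IL1R1 (9.88), IL1R2 (1.92), IL1RAP (0.696), CASP1 (0.595), IL1A (0.0463), IL1RL1 (0.0416), IL1B (0.0139), IL1RN (0.00225) and IL33 (0.00105). The ranges of IL18 and IL1R1, IL1RAP and CASP1, IL1A and IL1RL1, IL1RL1 and IL1B, and IL1RN and IL33 overlapped in controls, so the order within those pairs was not separated by the samples. After irradiation IL18 (30.2), IL1R1 (10.4) and IL1R2 (2.71) kept the first places, with no overlap between them. IL1A (0.744) now stood next, ahead of IL1RAP (0.501), CASP1 (0.405) and IL1RL1 (0.223), although the ranges of neighbours in this run from IL1A to IL1RL1 overlapped. IL1B (0.0413), IL1RN (0.0266) and IL33 (0.0168) remained lowest, each overlapping the next.

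**Figure D3:**
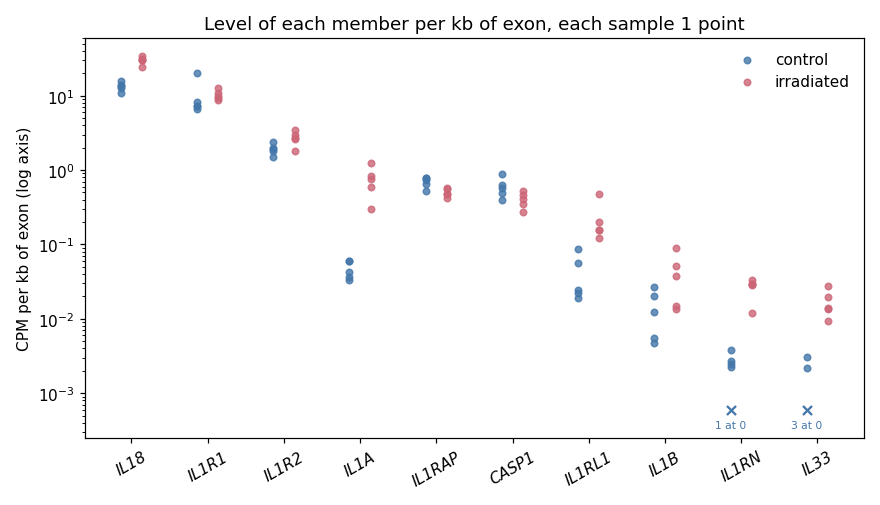
CPM per kb of exon (log axis) of each member, 1 point per sample, control in blue and irradiated in red, ordered by irradiated mean. Crosses at the bottom mark controls at 0 (1 for IL1RN, 3 for IL33). IL18 and IL1R1 were the highest, and on this scale of merged exon length IL1A rose from the level of IL1RL1 to that of IL1RAP.

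Ratios between members within a sample do not depend on the scaling between samples. Of 5 ratios fixed, the 3 with IL1RN or IL33 could not be given because 1 or 3 samples had a count of 0. The count ratio of IL1A to IL1B, the 2 agonists of IL1R1, was 1.2, 6, 1.5, 3.25 and 4 in controls and 38, 13.3, 9.28, 10.9 and 10.6 in irradiated samples. Every irradiated sample had a higher ratio than every control. The mean log2 ratio was higher by 2.38 after irradiation, or 5.22-fold (exact two-sided permutation test, p = 0.00794, the smallest that 5 against 5 can give, adjusted p = 0.0159 over 2 ratios). The denominators were 2 to 25 counts, and without replicate 1 the difference was 1.73 on the log2 scale. With the replicate numbers as a block (exact sign change within pairs) p was 0.0625, the smallest that 5 pairs can give.

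The ratio of the signalling receptor IL1R1 to the decoy IL1R2 was 10.4, 11.3, 19.96, 8.75 and 9.13 in controls and 7.56, 13.4, 8.77, 9.90 and 8.11 in irradiated samples. These values overlapped widely, with the highest again in control replicate 3. The mean log2 ratio differed by -0.28, which was within the spread between samples (exact two-sided permutation test, p = 0.341, adjusted p = 0.341 over 2 ratios).

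**Figure D4:**
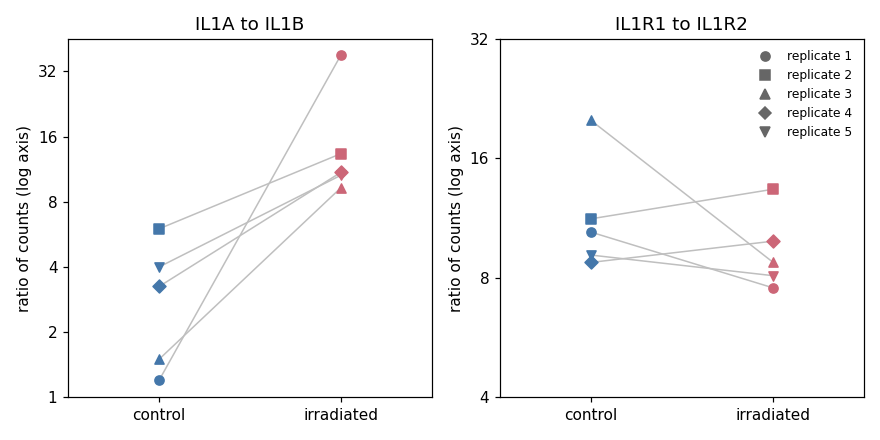
Count ratios of IL1A to IL1B and of IL1R1 to IL1R2 in each sample (log axes), with lines joining samples of the same replicate number. The IL1A to IL1B ratio was 1.2 to 6 in controls and 9.28 to 38 in irradiated samples, whereas the ratios of the receptors overlapped.

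The other ligands IL36A, IL36B, IL36G, IL36RN, IL37 and IL1F10, which lie between IL1B and IL1RN on chromosome 2, had at most 5 counts in any sample, and IL36A and IL1F10 had 0. None of the 6 could be tested. Of 7 other receptors and decoys, 3 were tested and all 3 were higher, where 23.9% of all genes tested were higher. SIGIRR, an inhibitory receptor of the family, was at 14.7 to 19.5 CPM in controls and 21.9 to 25.1 CPM after irradiation (log2 fold change 0.49, SE 0.06, edgeR adjusted p = 0.000370). IL18BP, a secreted protein that binds IL-18, was at 5.30 to 8.44 and 5.91 to 10.3 CPM (log2 fold change 0.39, SE 0.11, edgeR adjusted p = 0.0231), with 17.6% of its exon length under NUMA1, and its call was lost in 4 of 12 alternatives. IL18R1, the IL-18 receptor chain, had a log2 fold change of 0.96 (SE 0.22, edgeR adjusted p = 0.00896), whereas its partner IL18RAP had 28 counts in all. The remaining genes of this group had at most 8 counts in any sample.

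The inflammasome and release list covers sensors, adaptors, caspases, gasdermins and regulators around CASP1. Of 26 genes, 17 were tested, of which 7 were higher, 2 were lower (GSDMB and NEK7) and 8 did not pass, with a median log2 fold change of 0.22. Over all genes tested, 23.9% were higher, 22.7% were lower and the median was -0.01. NLRP1, an inflammasome sensor of epithelia, was at 0.0501 to 0.130 CPM in controls and 0.687 to 1.67 CPM after irradiation (log2 fold change 3.43, SE 0.18, edgeR adjusted p = 1.89e-05). NLRP3, the sensor best known from macrophages, was at 0.465 to 0.919 and 1.34 to 2.93 CPM (log2 fold change 1.65, SE 0.22, edgeR adjusted p = 0.000787), but 66.0% of its exons overlap another gene and its counts are uncertain. In neither sensor did the groups overlap, a separation seen in 26.7% of all genes tested. NLRP1 passed the count minimum through the irradiated samples, since its control counts summed to 54. CAPN2, a calpain subunit of the protease class that processes IL-1α, was 1 of the 2 genes of highest mean CPM in the list (log2 fold change 0.85, SE 0.05, edgeR adjusted p = 3.83e-05). The other was TXNIP, a thioredoxin-binding protein (log2 fold change 0.22, SE 0.08, edgeR adjusted p = 0.0458), whose call was lost in 8 of 12 alternatives. PYCARD, the adaptor between sensors and caspase-1, did not pass (log2 fold change -0.20, edgeR adjusted p = 0.133), with 59.7% of its exons under an antisense gene. P2RX7 and CARD17P had 0 counts in every sample.

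Of 19 genes of signal transduction below the receptor, 18 were tested, of which 4 were higher, 4 were lower (TAB1, PELI1, PELI2 and ECSIT) and 10 did not pass, with a median log2 fold change of -0.06. These counts are near the shares over all genes tested, 23.9% higher and 22.7% lower. IRAK2, a kinase of the receptor complex, was the only one of them changed by more than 2-fold, from 3.80 to 8.65 CPM in controls to 34.9 to 56.2 CPM after irradiation (log2 fold change 3.02, SE 0.19, edgeR adjusted p = 3.60e-05). The adaptor MYD88 and the kinases IKBKB and MAP3K8 were also higher, by 0.37, 0.48 and 0.35 on the log2 scale. The 2 genes of highest mean CPM in the list did not pass: IRAK1 had a log2 fold change of -0.12 (edgeR adjusted p = 0.160) and MAPKAPK2 of -0.12 (edgeR adjusted p = 0.0514). The number lower depended on the scaling, with 7 under upper-quartile normalisation and 10 when only library size was used.

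Genes that IL-1 is known to induce, most of which also answer to other NF-κB stimuli, made up the list with the highest median. Of 18 genes, SOD2 was not analysed here and 15 were tested, of which 12 were higher, 2 were lower and LCN2 did not pass (log2 fold change 0.66, edgeR adjusted p = 0.0585). Their median log2 fold change was 1.57, and 10 were higher by more than 2-fold. Over all genes tested, 23.9% were higher, 22.7% were lower and 5.26% were higher by more than 2-fold. The list was chosen with earlier results of these data known, so its counts are descriptive only. The neutrophil chemokine CXCL8 was at 3.83 to 11.4 CPM in controls and 48.5 to 127 CPM after irradiation (log2 fold change 3.78, SE 0.40, edgeR adjusted p = 0.000271). TNFAIP3, which encodes the NF-κB inhibitor A20, was at 5.27 to 14.5 and 73.1 to 142 CPM (log2 fold change 3.67, SE 0.28, edgeR adjusted p = 6.70e-05). The cytokine IL6 was at 3.47 to 7.74 and 35.03 to 75.4 CPM (log2 fold change 3.21, SE 0.17, edgeR adjusted p = 2.11e-05). BIRC3, CXCL2 and CXCL3 had log2 fold changes of 3.37, 3.35 and 2.77, and CXCL1, NFKBIA, ICAM1 and CCL2 of 1.65, 1.57, 1.23 and 1.13. CXCL1, CXCL2 and CXCL3 are close copies whose reads could be split, and 25.4% of the exon length of ICAM1 lies under antisense genes. NFKBIZ, an NF-κB regulator and the gene of highest mean CPM in the list, not scaled for length, had a log2 fold change of 0.44 (SE 0.11, edgeR adjusted p = 0.0139). CEBPD and CEBPB, transcription factors of the acute phase response, were lower by contrast, with log2 fold changes of -0.90 and -0.80. CCL20 and PTGS2, which encodes cyclooxygenase 2, were under the count minimum with at most 18 counts in any sample.

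**Figure D5:**
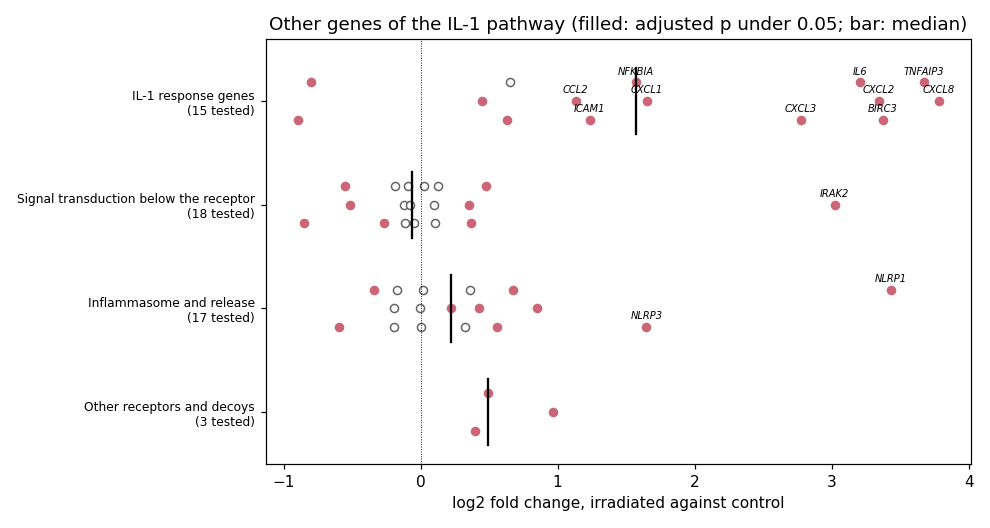
Fitted log2 fold changes of the tested genes in 4 lists of the IL-1 pathway, each point a gene, filled where the adjusted p was under 0.05, with genes changed by more than 2-fold named and the median of each list as a bar. Medians were 1.57 for IL-1 response genes, -0.06 for signal transduction, 0.22 for inflammasome and release, and 0.49 for other receptors and decoys. Vertical positions within a list only separate the points.

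The genes whose pattern over the 10 samples was most like that of a member were found among 14351 genes of at least 1 CPM on average, as the smallest root mean square difference in centred log2 CPM. A small constant was added to every count before the logarithm. For IL1A these were KRTAP2-3 (0.277), the pseudogene PTPN11P3 (0.319), IL23A, which encodes a subunit of IL-23 (0.327), NAV2-AS6 (0.373) and the chemokine CXCL2 (0.394). KRTAP2-3, PTPN11P3, NAV2-AS6 and CXCL2 had control means of 0.230, 0.331, 0.163 and 0.866 CPM. They met the average of 1 CPM only through the irradiated samples. CDKN1A was the closest gene to IL33 (0.408), followed by INPP5D (0.483), HES2 (0.487), PTCHD4 (0.502) and KIAA1549L (0.514). IL1B had no gene as near, with DTNA at 0.602 and the cell adhesion gene CEACAM1 at 0.689 among its closest 5, beside PCDH1, SLC16A12 and ENSG00000274312. The control mean of ENSG00000274312 was also under 1 CPM, at 0.687. These distances are a description over 10 samples in 2 groups, and the patterns of IL1B and IL33 rest on few counts per sample. IL33 had 0 or 1 count in each control, so its distances, including that to CDKN1A, depend on the added constant.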

How the data were processed

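Bulk RNA-seq of 5 control and 5 irradiated samples was analysed. The authors trimmed reads with Trim-Galore, aligned them to GRCh38 (hg38 in the submitters' processing notes) with STAR and counted them per gene during alignment. They deposited raw counts, whole numbers with no scaling or filter, and the columns of all samples were used. The annotation release is not given in the sources used here. Of 61587 identifiers, 56987 equal those of GENCODE release 44, which gave coordinates and exon lengths. The labels name the line RPTEC/TERT with a final number that differs between samples, and the study's methods name RPTEC/TERT1 throughout. The labels and the methods name different library kits, and strand use in the counting is not stated, so overlapping genes are uncertain.

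Counts were tested in R 4.3.3 with edgeR 4.0.16 (TMM, glmQLFit, glmQLFTest), keeping genes whose counts summed to 200 or more, with replicate number as a block, as in the study's model, and Benjamini-Hochberg adjustment over all genes tested. SEs were derived from the fitted change and its F statistic (change over root F). Numbers were treated as pairing samples, since deviations from the group means correlated at 0.217 to 0.508 for each of the 5 numbers, against -0.355 to 0.317 for different numbers. No 2 replicates matched within counting noise, but numbers 4 and 5 lay much nearer each other than any other pair did. Their chi-square per gene was 15.17 in controls and 8.53 after irradiation, against 57.26 to 214 and 40.5 to 88.87 for the rest. Control 5 with irradiated 4 correlated at 0.317 and control 4 with irradiated 5 at 0.295, above the 0.217 of number 2. Whether samples 4 and 5 were independent was not tested, so n = 5 and leaving out single replicates may overstate independence. Ratios were tested by exact permutation (scipy 1.17.1), and intervals are exact and cover counting error only. The tests were tested on simulated data.

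Alternatives were DESeq2 1.42.0, limma-voom (limma 3.58.1), scaling by upper quartiles or by library size alone, filters of 1 count or by filterByExpr, no block, and each replicate left out. The members, lists and tests were chosen with earlier results of these data known. Members are all named, and from each list the genes called and changed by more than 2-fold and the 2 of highest mean CPM. Other list genes were named after their values were seen. Promoter windows came from RefSeq (GRCh38.p14), and motifs were searched on both strands, the NF-κB motif as its 10-base consensus. Plots were made in Python 3.11.15 (matplotlib 3.10.9). Other data of the study were not analysed here.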

Additional observations from a re-analysis of the deposited data

Results flagged for a closer look

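Within each group of 5 samples, the highest and lowest values of the members' CPM and of both ratios were examined by Dixon's test. Of 24 groups, 4 held a sample far from the others, where 1.2 would be so by chance. IL1R1 was at 143 CPM in control replicate 3, against 47.0 to 59.5 CPM in the other controls. IL1RL1 was at 2.73 CPM in irradiated replicate 3, against 0.701 to 1.14 CPM in the other irradiated samples. IL1RN was at 0.0448 CPM in irradiated replicate 2, from 3 counts, against 0.108 to 0.124 CPM in the others. The log2 ratio of IL1A to IL1B was 5.25 in irradiated replicate 1, against 3.21 to 3.74 in the others.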

How the results depend on the processing

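IL1A, IL18, IL1RL1 and IL1RAP kept their direction and call under all 12 alternatives, with log2 fold changes of 3.76 to 4.15, 1.10 to 1.26, 1.85 to 2.86 and -0.54 to -0.36. None of the 7 tested members changed sign under these. With every gene of at least 1 count, 7 members were higher, against 10.2% of all genes in that fit. Without the replicate block 1 member was lower, and with each replicate left out 1 to 2 were lower and 3 to 5 higher. In the inflammasome list, 4 genes were lower with library size only and 4 with every gene of at least 1 count, and 1 to 3 with each replicate left out. In the signalling list, 7 were lower under upper-quartile normalisation and 10 with library size only. Over all genes, 51.4% of calls were higher, against 44.9% under upper-quartile normalisation and 38.0% with library size only. Without the block, 3640 genes were higher and 3366 lower, against 4550 and 4307. Under the replicate block (exact sign change within pairs) the log2 difference of the IL1A to IL1B ratio was 2.38 with p = 0.0625, the smallest that 5 pairs can give, and without replicate 1 it was 1.73. The block changed no other call of a member than CASP1. The cause of these changes was not tested. Depth limits IL1B, IL1RN and IL33, where a count of 0 over the 5 controls would allow up to 0.00547 CPM.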

Other observations

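Within the controls, MKI67, a marker of dividing cells, was at 76.7 and 60.4 CPM in replicates 1 and 3 and at 217 to 234 CPM in the others. CASP1 was highest in those 2 controls (3.50 and 2.52 CPM) and IL18 lowest (28.1 and 32.7 CPM). These are values of 5 samples, noticed after the data were seen and not tested. In irradiated samples MKI67 was at 15.3 to 29.6 CPM.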
